A study of Rattus norvegicus with 5 samples.

Results

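Transcripts of the epidermal growth factor (EGF) receptor family were examined in rat thyroid epithelial cells grown as follicles or as monolayers. The group comprised 10 genes, which encode the receptors Egfr, Erbb2 and Erbb3, the ligands Areg, Ereg, Hbegf, Tgfa, Btc and Nrg1, and the receptor inhibitor Errfi1. They were chosen by function, by pairing the RefSeq accession printed for each array probe with the current rat gene symbol, and accounted for 13 of 30367 probes and 10 of 15154 genes. FRT cells are a line from Fischer rat thyroid that forms polarized epithelia. They were maintained in medium with calf serum and a mixture of hormones, without genetic modification, and RNA was taken on day 5 from 2D monolayers or from 3D cultures in Matrigel, a basement membrane gel in which single cells grow into hollow follicle-like structures. On each of 4 two-colour Agilent arrays, 1 of 4 replicate 3D cultures (Cy5) was hybridized against a common pool of the 2D cultures (Cy3), and on a further array pooled 2D RNA carried Cy5 and pooled 3D RNA Cy3. This last array is called the swapped array, and its ratios were turned to the same direction as the others.

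ErbB receptors are membrane tyrosine kinases that signal as pairs. Most of their ligands are made as membrane-anchored precursors that proteases cut free, and the activated receptors feed the Ras-ERK and PI3K-Akt cascades until inhibitors, phosphatases and endocytosis turn them off. In epithelia the family is known for driving proliferation and migration, and EGF is known as a mitogen of cultured thyroid cells that lowers their differentiated functions.

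All values are log2 ratios of 3D over 2D within an array unless called a level. A level is the log2 normalized signal of 1 side of an array. The difference was fitted over the 5 arrays with limma, and a gene was called at an adjusted p (Benjamini-Hochberg over all 15154 genes) below 0.01. The 5 arrays held 4 distinct 3D cultures and a single 2D pool, and the variation among 2D cultures is therefore not part of the test. The swapped array repeats pooled RNA of the same cultures and is no independent replicate, although the fit counts it like the others, so that each adjusted p treats 4 cultures as 5 values. Over the 4 replicate arrays alone 6 of the 10 genes were called, where 33.3% of all genes were called. All of them were among the 6 called over the 5 arrays. On the replicate arrays 3D always carried Cy5, so a dye effect and the culture cannot be told apart there. Because whole cultures were measured, fewer expressing cells and less RNA per cell cannot be told apart. Ratios correlated across genes with r from 0.871 to 0.946 between replicate arrays and from 0.734 to 0.765 between these and the swapped array, and genes are not independent replicates. All 6 markers of epithelium were above background on every array on both sides. Among markers of thyroid follicular cells, Pax8, Cdh16 and Foxe1 were above background on every array, and Nkx2-1, Tg, Tshr and Slc5a5 on 0 arrays. Of the markers of other cell types, 4 of 8 fibroblast genes (Col1a1, Col1a2, Col3a1 and Pdgfra), 1 of 5 measured endothelial genes and 1 of 6 leukocyte genes were above background on any array, and of these Pdgfra was called, at 0.55. Its part in the results was not tested.

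The 3 receptors were higher in 3D cultures, Nrg1, Hbegf and Errfi1 were lower, and Areg, Tgfa, Ereg and Btc did not pass the test. That makes 6 of 10 genes called, 3 in each direction, where 25.9% of all genes tested were called (14.4% higher and 11.4% lower). The members were chosen with earlier results of these data known, and 8 of the 10 were above background on all arrays. With dim probes left out (under 3 arrays above background on both sides), 3 of 8 members were higher and 3 lower. Beside them, 2218 of all 8374 genes were higher and 1751 lower. The median ratio over the 10 genes was -0.12, against 0.003 over all genes. It falls between Areg (-0.20) and Ereg (-0.04), neither of them called, and Ereg was above background on 0 arrays. The ranges of the 3D and 2D levels over the 5 arrays did not overlap for the same 6 genes, which was the case for 23.9% of all genes. Read probe by probe, 5 of the 13 probes were higher and 3 lower, with 22% of all probes called.

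**Figure D1:**
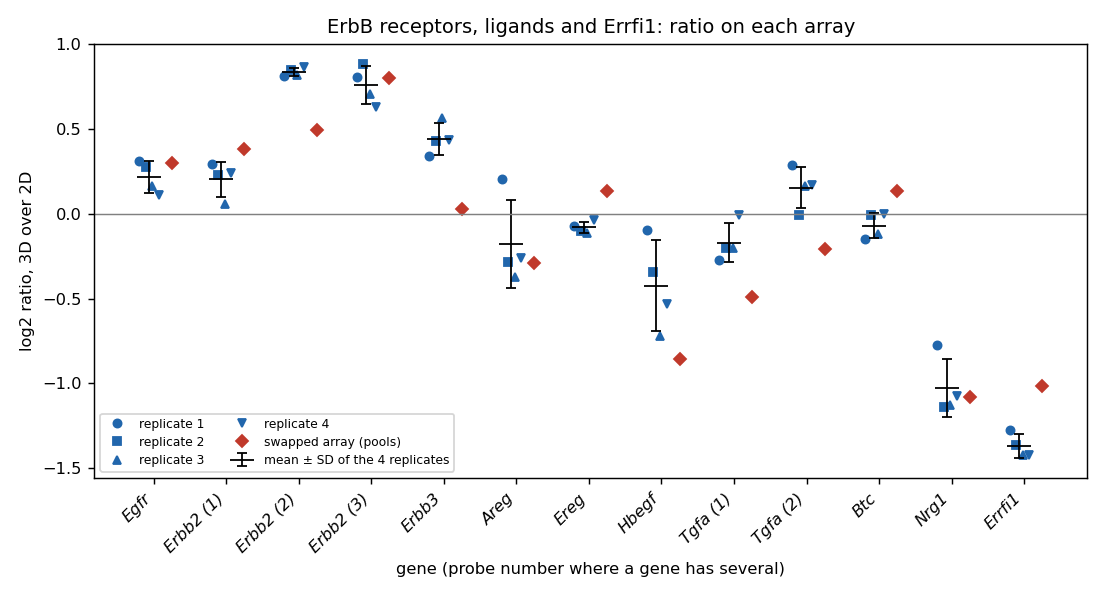
Log2 ratio of 3D over 2D (y axis) for each of the 13 probes (x axis) on the 4 replicate arrays (blue symbols), with their mean ± SD (black), and on the swapped array of pooled RNA (red diamonds). The probes of Egfr, Erbb2 and Erbb3 lie above 0 on every array, those of Hbegf, Nrg1 and Errfi1 below 0 on every array, and Areg lies above 0 in replicate 1 alone.

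Erbb2 showed the largest rise of the 10 genes. It encodes a receptor with no known ligand of its own that acts as the preferred partner of the other family members. On its brightest probe it measured 0.81, 0.85, 0.82 and 0.86 in replicates 1 to 4 and 0.50 on the swapped array. The 4 cultures thus lay close together, at 0.84 ± 0.02 (SD, n = 4), and the swapped array lay below all of them. The fitted difference was 0.77 (SE 0.06, limma adjusted p = 7.16e-06), a 1.7-fold higher signal. The levels ran from 10.52 to 10.80 on the 3D side and from 9.76 to 10.03 on the 2D side, without overlap. A second probe gave 0.81, 0.89, 0.71 and 0.63 in replicates 1 to 4 and 0.80 on the swapped array, so that here the swapped array fell within the replicates, and its fit was also 0.77 (adjusted p over all probes = 1.57e-06). The remaining, dim probe was above background on 5 arrays on the 3D side but on 1 on the 2D side, and its ratio of 0.24 (adjusted p over all probes = 0.00518) is a compressed value.

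Egfr encodes the receptor for EGF, Tgfa and Areg. Its transcript measured 0.31, 0.28, 0.17 and 0.11 in replicates 1 to 4 and 0.30 on the swapped array. Every value was above 0 and all were small, with 0.22 ± 0.09 (SD, n = 4) over the replicates. The fit gave 0.23 (SE 0.05, limma adjusted p = 0.00274), a 1.18-fold difference, and the levels of 10.87 to 11.13 in 3D lay just above those of 10.76 to 10.85 in 2D. The call was lost without replicate 1 (adjusted p = 0.0136) or replicate 2 (0.0159), and the adjusted p ranged from 0.00228 to 0.189 over 16 alternatives to the processing.

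Erbb3 encodes a receptor with a weak kinase that binds neuregulins and, once phosphorylated by its partner, recruits PI3K. It measured 0.34, 0.43, 0.57 and 0.44 in replicates 1 to 4 but 0.03 on the swapped array, where its 2 spots read -0.10 and 0.16. The replicates averaged 0.44 ± 0.09 (SD, n = 4), and the swapped array stood apart from them. The fit was 0.36 (SE 0.07, limma adjusted p = 0.0028), or 1.28-fold, with levels of 7.03 to 7.49 in 3D and 6.83 to 7.003 in 2D. Leaving out any 1 of the 4 replicates ended the call, while a model with a term for the dye gave a smaller difference that still passed (0.24, adjusted p = 0.00487), within a range of adjusted p from 3.97e-05 to 0.154 over the alternatives. The size of the difference depended on the background correction, and was 0.61 with a normexp offset of 0 (adjusted p = 0.0213) and 0.78 with Agilent's processed signals (0.0189), neither of which passed.

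The stretches around the annotated start sites of Egfr and Erbb2 are shown because these were the called receptors with an entry in the RefSeq promoter table of build GRCr8, which held 7 of the 10 genes and none for Erbb3, Ereg and Nrg1. Each runs 5′ to 3′ on the coding strand, which reads as the RNA does, from 250 bases before to 50 after the start. Capitals mark matches to 4 sets of letters. These were TATAAA on the coding strand (in 8.8% of 33469 rat promoters of this length), and 3 sets on either strand. The latter were GGGCGG, the GC box (33.1%), TGACG, the core of a cyclic AMP response element (21.2%), and TGANTCA, the AP-1 element (7.33%). Egfr lies at chr14:95378376-95378675 (+ strand) and Erbb2 at chr10:83907351-83907650 (+ strand).
Egfr: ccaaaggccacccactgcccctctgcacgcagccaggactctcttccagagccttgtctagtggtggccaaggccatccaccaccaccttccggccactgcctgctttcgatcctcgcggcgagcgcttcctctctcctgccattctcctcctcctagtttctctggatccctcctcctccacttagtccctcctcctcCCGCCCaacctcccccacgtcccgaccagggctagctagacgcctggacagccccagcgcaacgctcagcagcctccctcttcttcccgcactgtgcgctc
Erbb2: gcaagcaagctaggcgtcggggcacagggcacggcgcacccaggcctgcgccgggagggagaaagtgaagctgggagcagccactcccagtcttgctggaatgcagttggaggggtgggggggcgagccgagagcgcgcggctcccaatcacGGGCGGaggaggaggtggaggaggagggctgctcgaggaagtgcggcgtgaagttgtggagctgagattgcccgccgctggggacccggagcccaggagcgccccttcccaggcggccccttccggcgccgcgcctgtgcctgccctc
Each of these receptor promoters held 1 GC box and no match to the other 3 motifs within the window. A match is a description of the letters, and no binding was measured.

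**Figure D2:**
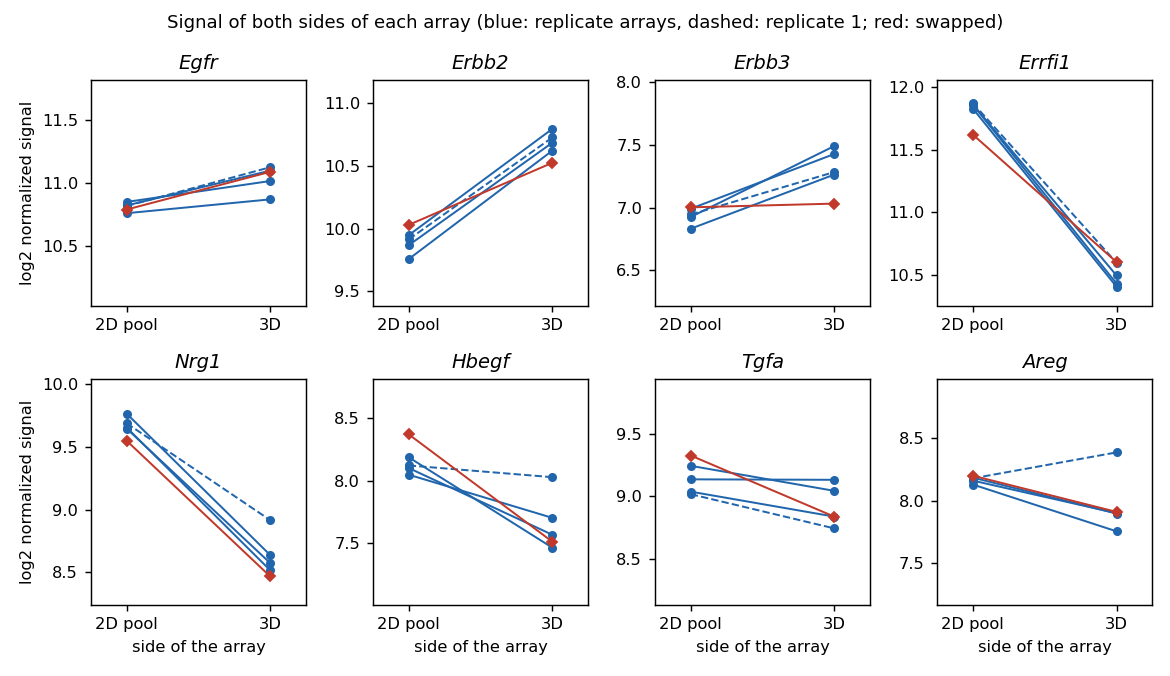
Log2 normalized signal (y axis, the same span in every panel) of the 2D pool and the 3D side of each array (x axis) for the 8 genes above background, with 1 line per array (blue, replicate arrays, replicate 1 dashed; red, swapped array). Lines of Erbb2 all climb and those of Errfi1 and Nrg1 all descend, whereas for Areg the dashed line climbs and the other 4 descend.

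Among the ligands, Nrg1 showed the largest fall. It encodes neuregulin 1, a ligand of Erbb3 and Erbb4. It measured -0.77, -1.14, -1.13 and -1.07 in replicates 1 to 4, and the swapped array gave -1.08. Replicate 1 was nearest to 0, and the other 4 arrays lay within a narrow range. The mean over the replicates was -1.03 ± 0.17 (SD, n = 4) and the fit -1.04 (SE 0.06, limma adjusted p = 1.07e-06), a 2.06-fold lower signal in 3D. The levels of 8.47 to 8.92 in 3D and 9.55 to 9.77 in 2D were well separated. Nrg1 has many isoforms, and the single probe does not tell which of them were measured.

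Hbegf encodes heparin-binding EGF-like growth factor, which binds Egfr and Erbb4. Its ratios spread more widely, at -0.09, -0.34, -0.72 and -0.53 in replicates 1 to 4 and -0.86 on the swapped array. All 5 arrays were below 0, with replicate 1 close to it and a mean of -0.42 ± 0.27 (SD, n = 4). The fit gave -0.51 (SE 0.10, limma adjusted p = 0.00245), a 1.42-fold lower signal in 3D. On the 3D side the level of 8.03 in replicate 1 lay just under the 2D range of 8.05 to 8.37, and the lowest 3D level was 7.47. The call was lost without replicate 3 (adjusted p = 0.0134) or replicate 4 (0.0115), and the adjusted p ranged from 0.000611 to 0.627 over the alternatives.

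Areg encodes amphiregulin, an Egfr ligand that is shed from the cell surface. It was the only gene above background whose brightest probe changed sign between cultures, with 0.21 in replicate 1 against -0.29, -0.37 and -0.26 in replicates 2 to 4 and -0.29 on the swapped array. Its probe is printed as 10 spots per array, which makes the difference visible spot by spot. In replicate 1 all 10 spots were above 0, from 0.06 to 0.31, whereas on the other arrays 0 of the 8 to 10 spots kept were above 0, and they ran from -0.50 to -0.11. The 2D levels stayed within 8.13 to 8.20 on all arrays while the 3D levels ran from 7.76 to 8.39, so the disagreement lay on the 3D side. Over the 5 arrays the fit was -0.20 (SE 0.08, limma adjusted p = 0.0805) and Areg was not called. Without replicate 1 it was called at -0.30 (adjusted p = 0.00128), the only 1 of 16 alternatives that did so, within a range of adjusted p from 0.00128 to 0.523.

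Tgfa encodes transforming growth factor alpha, another shed Egfr ligand, and its probes did not give the same picture. The brighter probe measured -0.27, -0.20, -0.20 and -0.004 in replicates 1 to 4 and -0.49 on the swapped array. All 5 values were below 0, 1 of them only just, and the fit of -0.23 (SE 0.06, limma adjusted p = 0.0175) missed the threshold. The dimmer probe read 0.29, -0.01, 0.16 and 0.17 in replicates 1 to 4 and -0.20 on the swapped array, with a fit of 0.08 (adjusted p over all probes = 0.447). On both probes the swapped array gave the lowest ratio of the 5. With a term for the dye the brighter probe passed at -0.33 (adjusted p = 0.00124), and over the alternatives its adjusted p ranged from 0.00124 to 0.489.

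Ereg (epiregulin) and Btc (betacellulin), both ligands of Egfr and Erbb4, were above background on 0 of 5 arrays on either side, so that no fold was derived for them. Their ratios ran from -0.11 to 0.13 for Ereg and from -0.15 to 0.14 for Btc. Epgn, the gene of the ligand epigen, had no matched probe. On rat chromosome 14, Btc, Areg, Ereg and Epgn follow each other with 0 annotated genes between neighbours (GRCr8). Of the measured genes of this cluster only Areg was above background. Of the remaining receptor and ligand genes of the family, Erbb4, Egf, Nrg2 and Nrg4 were measured, none was called, and only Egf rose above background, on 2 arrays on the 3D side and 1 on the 2D side.

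Errfi1 showed the largest fall of the 10 genes. It encodes Mig6, a cytoplasmic protein that binds the kinase domains of Egfr and Erbb2 and inhibits them, and its own transcript is known to be induced by EGF. It measured -1.27, -1.36, -1.43 and -1.42 in replicates 1 to 4 and -1.02 on the swapped array. The replicates lay close together at -1.37 ± 0.07 (SD, n = 4), and the swapped array was nearest to 0. The fit was -1.30 (SE 0.06, limma adjusted p = 4.2e-07), a 2.46-fold lower signal in 3D, which placed Errfi1 among the lowest 0.4% of all genes. The levels were 10.41 to 10.60 in 3D and 11.62 to 11.87 in 2D, without overlap. The start region of Errfi1 is shown beside that of Areg, since both held letters that the receptor promoters lacked, at chr5:166606591-166606890 (+ strand) and chr14:17265592-17265891 (- strand).
Errfi1: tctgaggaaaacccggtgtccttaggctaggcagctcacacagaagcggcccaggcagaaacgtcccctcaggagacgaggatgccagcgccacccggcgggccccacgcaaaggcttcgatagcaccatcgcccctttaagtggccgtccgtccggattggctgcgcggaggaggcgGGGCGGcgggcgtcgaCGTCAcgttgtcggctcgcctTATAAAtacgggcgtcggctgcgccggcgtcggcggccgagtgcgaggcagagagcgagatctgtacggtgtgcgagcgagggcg
Areg: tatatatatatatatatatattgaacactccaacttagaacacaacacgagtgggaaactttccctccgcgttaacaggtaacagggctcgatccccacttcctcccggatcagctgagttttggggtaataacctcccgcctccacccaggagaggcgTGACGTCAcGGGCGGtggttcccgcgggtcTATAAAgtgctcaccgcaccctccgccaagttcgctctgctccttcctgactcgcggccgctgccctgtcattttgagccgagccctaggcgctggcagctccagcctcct
Both held 1 TATAAA and 1 GC box each. Errfi1 held TGACG once, read on the opposite strand, and Areg held it on both strands as the 8-letter palindrome TGACGTCA, which 1.83% of rat promoters contain and none of the other 6 member promoters did. Of the promoters not printed, Hbegf had 1 TGACG and none of the other 3 motifs. Those of Tgfa and Btc, neither of them called, held GC boxes alone (2 and 1), as did the receptor promoters. TGANTCA was found in 0 of the 7 promoters.

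A dye term fitted to the 5 arrays passed for 0 of the 10 genes at an FDR of 0.01, where 1.9% of all genes passed. At an unadjusted p below 0.05 it passed for 5 of the 10, against 27.3% of all genes. With that term the calls were 3 higher and 4 lower, Tgfa being the added one, and 26% of all genes were called. Erbb2, Erbb3 and Errfi1 were nearer to 0 with the term, at 0.67, 0.24 and -1.19. Egfr, Hbegf and Nrg1 were farther from 0, at 0.26, -0.64 and -1.06. Since 1 array was swapped, a dye effect and any other property of that array cannot be told apart.

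Genes that act beside the family were counted in 5 lists, 94 genes in all, of which 81 were measured. Of these, 20 (24.7%) were higher and 17 (21%) lower, where 14.4% of all genes were higher and 11.4% lower. The shares of each list stand against the same background, which includes many genes with dim probes, whereas 68 of the 81 were above background on every array on both sides. With dim probes left out, 20 of 72 listed genes were higher and 17 lower, beside 2218 higher and 1751 lower of all 8374 genes. In both directions the share of listed genes was then close to that of all genes. The ligand shedding list held proteases, pseudoproteases and the protease inhibitor Timp3, and 7 of its 9 genes were measured. Of these, 3 were higher (42.9%) and 1 lower (14.3%), with a median of 0.12, against 0.003 over all genes. Timp3 was above background on 0 arrays. Rhbdl2, a rhomboid protease that can cut EGF precursors, measured 0.27 to 0.62 in the replicates and 1.00 on the swapped array, with a fit of 0.61 (limma adjusted p = 0.000373). Adam15 rose by 0.47 (adjusted p = 0.000771), although replicate 1 read 0.09 where the other 4 arrays read 0.50 to 0.63. Rhbdf2, an inactive rhomboid that escorts Adam17 to the cell surface, had a small fall of -0.19 (adjusted p = 0.00363).

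Adaptors and kinases downstream of the receptors, 34 of 38 measured, were called in both directions, with 9 higher (26.5%), 6 lower (17.6%) and a median of 0.02. The largest rises were those of Mapk3, which encodes ERK1, at 0.68 (limma adjusted p = 4e-04), which read 0.15 where the dyes were swapped and 0.76 to 0.91 in the replicates, and of Stat5a at 0.55 (5.52e-06). The largest falls were those of the tyrosine kinase Src at -0.55 (9.23e-05) and of Akt2 at -0.38 (0.00242). Genes that restrain or internalize the receptors, 14 of 18 measured, had 5 higher (35.7%), 2 lower (14.3%) and a median of 0.14. Sh3kbp1, which encodes the Cbl-binding adaptor CIN85 of receptor endocytosis, measured 1.65, 2.01, 1.78 and 1.87 in replicates 1 to 4 and 1.95 on the swapped array. Its fit of 1.85 (4.12e-08) on the brightest probe was the largest rise of all 5 lists. With all of its probes averaged it was smaller, at 1.34 (8.34e-08). The receptor phosphatase Ptprj rose by 0.47 (2.24e-05) on its brightest probe and by 0.28 (0.000378) with all of its probes averaged. Ptpn1, a phosphatase that acts on Egfr, was lower at -0.42 (0.00167), as was Socs5, an adaptor for receptor degradation, at -0.20 (0.00871).

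Transcripts known to respond to ERK or to feed back on it, 22 of 23 measured, had 8 called lower (36.4%) and 3 higher (13.6%), with a median of -0.17. Fosl1, a subunit of AP-1, measured -1.69, -1.78, -1.89 and -2.06 in replicates 1 to 4 and -1.96 on the swapped array, and its fit was -1.88 (limma adjusted p = 4.12e-08). Dusp5, a nuclear phosphatase of ERK, ran from -1.74 to -1.29 with a fit of -1.59 (1.51e-07). Both fits were below that of Errfi1, and these differences between genes were not tested. In the other direction, Spry2, an inhibitor of receptor signalling to Ras, rose by 0.68 (1.1e-05) and Junb by 0.54 (0.00512), the latter from 0.08 on the swapped array to 0.95 in replicate 3. Of the genes named from the lists, 4 lost their call when 1 array was left out. These were Junb without replicate 2, 3 or 4 (adjusted p 0.0203 to 0.0237), Rhbdf2 without any 1 replicate (0.0114 to 0.0175), Akt2 without replicate 2 or 4 (0.0146 and 0.0121), and Socs5 without replicate 1, 3 or 4 or the swapped array (0.0114 to 0.0444). With a normexp offset of 0 these 4 and also Rhbdl2 (adjusted p = 0.0115), Adam15 (0.0167), Mapk3 (0.0102) and Ptpn1 (0.0188) were not called, and Akt2 read -0.59. With a term for the dye Junb (0.37, adjusted p = 0.029), Akt2 (0.0102) and Socs5 (0.0118) were not called.

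**Figure D3:**
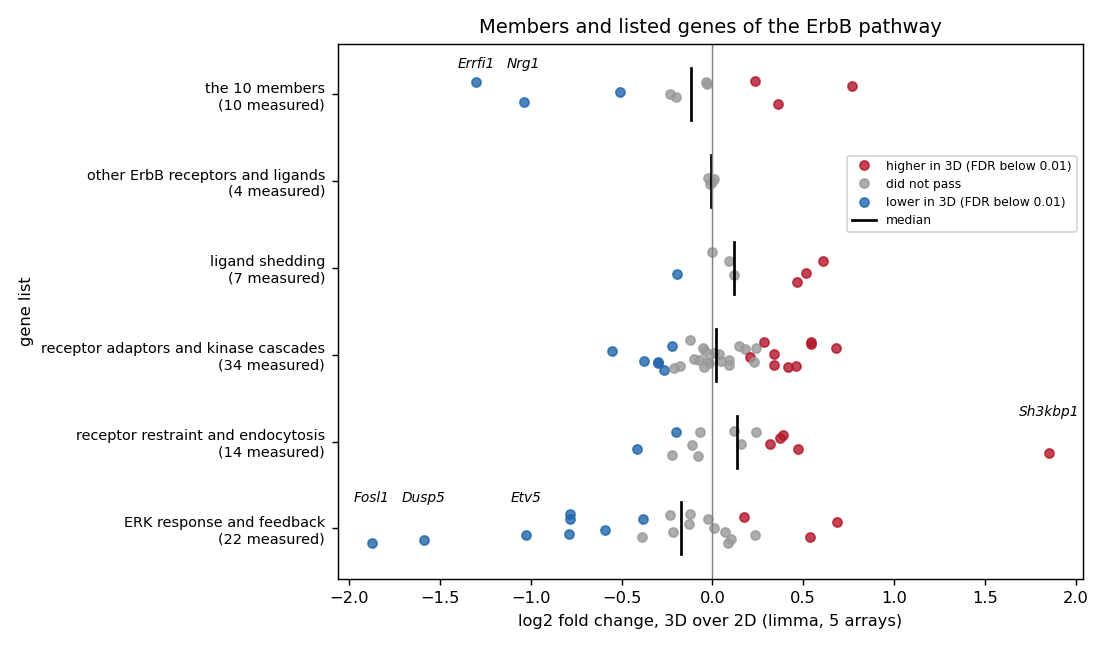
Fitted log2 fold change of 3D over 2D (x axis) of the 10 family genes and the measured genes of 5 lists (y axis), with 1 point per gene, red where higher and blue where lower at an FDR below 0.01, grey where not called, and a black line at the list's median. Points are spread vertically for legibility, and called genes with a change of at least 1 are named. Sh3kbp1 at 1.85 and Fosl1 at -1.88 mark the extremes of the lists.

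The genes with ratios most like those of Erbb2 over the 5 arrays, by Euclidean distance, were Sh3bp4 (distance 0.112), Phf11 (0.113) and Mgst3 (0.133). The distance was taken from the brightest Erbb2 probe, so these genes share its low swapped value by selection, at 0.48, 0.50 and 0.49, which the other Erbb2 probes did not show. For Errfi1 the nearest were Ccnb2 (0.182) and Bub1 (0.186), which encode a mitotic cyclin and a spindle checkpoint kinase, and Stmn1 (0.249), which encodes a protein that destabilizes microtubules. Their fits were -1.25, -1.33 and -1.25. These were read from the brightest probe of each gene. With all probes averaged, Bub1 read -0.75 and Phf11 0.49, against 0.80 on its brightest probe, while Sh3bp4, Mgst3, Ccnb2 and Stmn1 did not change. Likeness over 5 ratios is a description of these arrays.

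**Figure D4:**
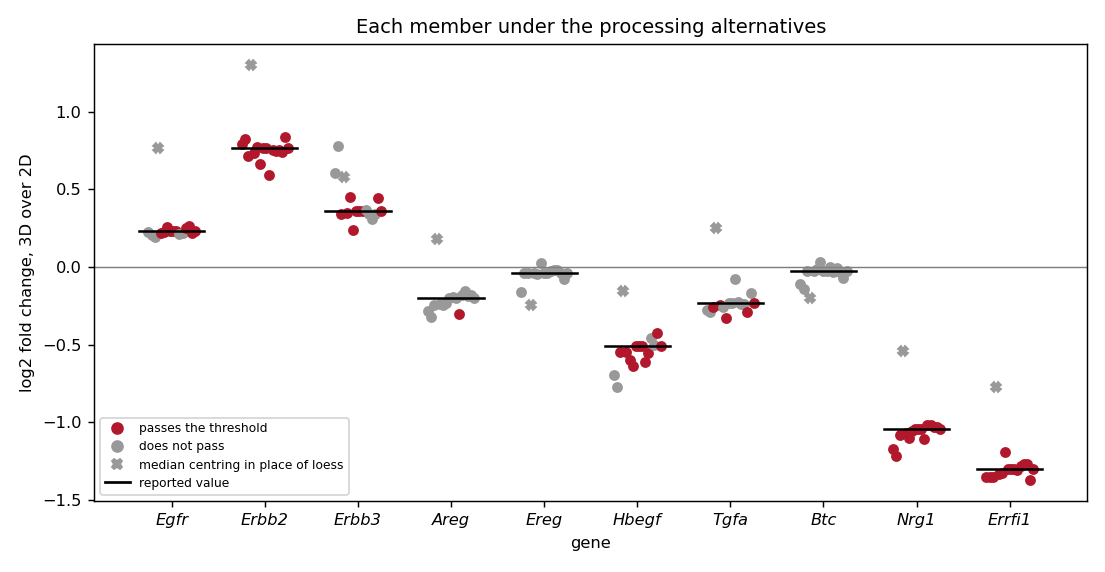
Fitted log2 fold change (y axis) of each of the 10 genes (x axis) under the alternatives to the processing, red where the gene passed the threshold and grey where it did not, with crosses for median centring in place of loess and a black line for the reported value. Erbb2, Nrg1 and Errfi1 passed under all alternatives but median centring, under which 0 of the 10 genes passed.

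Erbb2, Nrg1 and Errfi1 passed in 15 of 16 alternatives, with differences of 0.59 to 1.30, -1.22 to -0.54 and -1.37 to -0.77. Hbegf passed in 11 (-0.77 to -0.16), Egfr in 10 (0.19 to 0.77), Erbb3 in 9 (0.24 to 0.78) and Tgfa in 5 (-0.33 to 0.25). One alternative, the FDR of 0.05, reuses the reported fit, so every called gene passes it by construction. Tgfa passed that one at its unchanged limma adjusted p of 0.0175. The exception for the first 3 was centring each array on its median in place of loess, under which 7 genes of the whole array passed, all of them higher, and the ratios of Areg and Tgfa turned positive, while the receptors stayed above 0 and Nrg1, Hbegf and Errfi1 below.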

How the data were processed

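The samples were the 5 arrays described above, all on 1 slide. The authors' spot and background intensities were deposited as median pixel values read by Agilent Feature Extraction 10.7.3.1, with the software's processed intensities and log10 ratios of Cy5 over Cy3. The deposited value table holds log2 ratios that the authors made with limma (normexp, loess, and quantiles between arrays). Its 5 columns ran 3D over 2D (r of 0.995 to 0.998 with the ratios of 3D over 2D normalized as described below), with medians of -0.0064 to 0.0011. The deposited columns of other kind were spot annotation and quality marks.

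Here the median intensities were processed in R 4.3.3 with limma 3.58.1 by normexp (offset 50, which compresses ratios of dim probes), loess with control and outlier spots at weight 0, and quantiles of the average intensity. Outlier spots (1.12% to 1.6% per array) were left out, and 0 spots were saturated. Spots of a probe were averaged. A symbol was found for 59.3% of probes, and the brightest probe stood for each gene, with other probes fitted apart. No genes were filtered out. Between 45% and 50.9% of probes were above background on 1 side of an array, meaning marked so on at least a share of 0.5 of their spots. A linear model with 1 coefficient over 5 arrays was fitted with lmFit and eBayes (prior degrees of freedom 5.13), and again with a dye term. An exact two-sided sign test over the 4 replicates reaches 0.125 at best, and the number of arrays limits the precision. The fit was tested on simulated data.

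All members were named with all probes, and from each list at most the 2 largest rises and 2 largest falls among called genes with 1 sign over the 5 arrays and a signal above background in the brighter condition. Members and lists were chosen with earlier results of these data known. The arrays were designed on rn4. Symbols, gene order and promoters came from RefSeq tables of GRCr8, matched by accession without version. Alternatives covered the normexp offset, the source of the ratio, normalization, background, dye, dim probes, outlier spots, probe choice, each array left out and an FDR of 0.05. Those for list genes and for the genes with like patterns were added after seeing the data. Not every listed gene is reported here.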

Additional observations from a re-analysis of the deposited data

How the results depend on the processing

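The number of called member genes (3 higher and 3 lower) changed under 11 of 16 alternatives, and counts that moved by over 1.5 times are given here. With a normexp offset of 0, 1181 genes were higher and 1041 lower (2183 and 1735 as reported), 1 member gene was higher (3 as reported), and 7 listed pathway genes were higher and 9 lower (20 and 17 as reported). With Agilent's processed signals 1 member gene and 11 pathway genes were higher, where 1489 of all genes were higher and 1345 lower. With median centring in place of loess 7 genes were higher and 0 lower, and 0 member and 0 pathway genes were called in either direction. There the ratio turned to 0.18 for Areg, 0.25 for Tgfa, 0.33 for Rhbdf2, 0.11 for Ptpn1 and 0.21 for Socs5. The share of called genes that were higher was 55.7% as reported, 49.2% with the authors' table and 100% with median centring. With a dye term Ereg turned to 0.027 and Btc to 0.034. With 1 array left out Btc ran from -0.069 to 0.0023 (without replicate 1). Both genes were at background. Leaving out 1 array gave 1 to 3 member genes higher and 2 to 4 lower. Of all genes, 1645 to 2863 were then higher and 1338 to 2185 lower. The lowest number of member genes higher came without replicate 1 or 2, when Egfr and Erbb3 were lost. Of the member probes, 5 were higher when each probe was fitted apart, and 3 when 1 probe stood for each gene. With the authors' table Egfr lost its call (adjusted p = 0.0117) and Tgfa gained one (0.00488). The cause of these changes was not tested. No paired analysis was possible because the 2D cultures were pooled. Ereg and Btc were dropped when dim probes were left out, so that setting gave no value for them.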

Other observations

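Replicate 1 stood nearest to 0, or above it, among the 4 replicate arrays for Areg, Hbegf, Nrg1 and Errfi1, with ratios of 0.21, -0.09, -0.77 and -1.27, and also for Adam15 at 0.09, and the epithelial keratin gene Krt19 read 0.79 there against 1.32 to 1.46 in the other replicates. It was the farthest below 0 for Tgfa, at -0.27 on the brighter probe. These genes were picked after their values were seen. The gap of replicate 1 to its nearest replicate, as a share of the range, was 0.821 for Nrg1 and 0.804 for Areg, both under Dixon's critical value for groups of that size.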
